A study of Mus musculus with 74 samples.

Results

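RAW264.7 is an established mouse line of macrophage-like cells that grew out of a virus-induced tumour, and it is a common model of the macrophage response to bacteria. The response described here is that of unedited RAW264.7 cells to 120 min of lipopolysaccharide (LPS), a cell wall component of Gram-negative bacteria, set against the same cells without LPS at 0 min. It rests on 4 of the 74 samples of the series, the RNA libraries named RAW_120 and RAW_0, with 2 libraries in each group. Of 24851 genes listed for these libraries, the 17450 with a mean of at least 1 normalized read over 12 jointly processed libraries were tested. The other 8 of those libraries came from lines 264 and 3205, derived from RAW264.7, each with 2 libraries at 120 min and 2 at 0 min of LPS. The study asks how phosphorylation of the replacement histone H3.3 bears on transcription after stimulation. It describes wild type, hypomorphic and H3f3a/H3f3b double knockout cells, and the labels do not say which of those the numbers 264 and 3205 stand for. One label field names the tissue as bone marrow derived macrophage and another names RAW264.7. No LPS dose was found for the cell lines. Whether replicates were separate cultures is not stated either, so a p-value below reflects scatter between libraries that may be technical.

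As background, LPS is handed by CD14 to the receptor TLR4, which signals through the adaptors MyD88 and TRIF. The pathway activates NF-kB, the MAP kinases and AP-1 within minutes, and through TRIF the factor IRF3, which switches on the gene of interferon beta. The genes reached first include cytokines, chemokines and the inhibitors that later shut the pathway off (IkB proteins, A20, MAP kinase phosphatases, mRNA decay factors). Interferon beta and other secreted proteins then act back on the cells and raise a later set of genes through the STAT factors.

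The genes with the 4 largest increases on the log2(normalized reads + 1) scale were those of the cytokines Lif, Il1b, Il1a and Il6, and their promoters are shown because they open the ranking described below. Each sequence runs from 250 bases before to 50 bases after a start listed for the gene in RefSeq (build GRCm38.p6), 5′ to 3′ on the gene's own strand. For Il1b and Il1a that start lies inside the gene, whose outer end is listed at 129371164 for Il1b and 129310186 for Il1a. Lif lies at chr11:4257318-4257617 on the plus strand, Il1b at chr2:129371090-129371389 on the minus strand, Il1a at chr2:129309923-129310222 on the minus strand and Il6 at chr5:30012864-30013163 on the plus strand. Capitals mark matches on either strand to 4 letter patterns, which are GGGA and TTCC with any 2 bases between them (a form of the NF-kB site), TGACTCA (the AP-1 site), GAAA and GAAA with any 2 bases between them (a form of the interferon response element) and TATAAA (the TATA box).
Lif: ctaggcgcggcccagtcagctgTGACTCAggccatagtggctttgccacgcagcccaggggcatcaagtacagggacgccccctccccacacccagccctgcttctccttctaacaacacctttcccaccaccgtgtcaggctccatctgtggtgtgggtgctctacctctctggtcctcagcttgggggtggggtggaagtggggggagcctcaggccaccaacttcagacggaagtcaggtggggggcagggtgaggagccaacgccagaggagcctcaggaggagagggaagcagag
Il1b: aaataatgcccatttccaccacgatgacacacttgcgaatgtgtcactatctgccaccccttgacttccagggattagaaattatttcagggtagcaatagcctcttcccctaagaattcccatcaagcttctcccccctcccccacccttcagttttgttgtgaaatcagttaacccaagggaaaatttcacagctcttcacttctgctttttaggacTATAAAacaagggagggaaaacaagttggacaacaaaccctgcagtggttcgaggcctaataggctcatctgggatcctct
Il1a: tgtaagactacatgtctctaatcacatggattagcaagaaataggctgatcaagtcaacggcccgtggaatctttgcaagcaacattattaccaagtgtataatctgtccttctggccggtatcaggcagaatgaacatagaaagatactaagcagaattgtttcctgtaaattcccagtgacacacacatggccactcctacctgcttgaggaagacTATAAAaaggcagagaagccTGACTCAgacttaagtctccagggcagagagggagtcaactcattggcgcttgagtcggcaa
Il6: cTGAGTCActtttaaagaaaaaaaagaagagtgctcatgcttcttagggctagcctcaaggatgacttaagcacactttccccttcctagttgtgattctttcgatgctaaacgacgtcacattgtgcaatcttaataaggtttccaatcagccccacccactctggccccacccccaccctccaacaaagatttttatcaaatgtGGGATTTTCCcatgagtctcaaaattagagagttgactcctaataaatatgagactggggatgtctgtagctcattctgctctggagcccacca
Within these windows Il6 held the NF-kB pattern and the AP-1 pattern, Il1a the AP-1 and TATA patterns, Il1b the TATA pattern and Lif the AP-1 pattern. A single listed promoter was found for 8963 of the genes tested, 494 of them among those that rose and 558 among those that fell. The AP-1 pattern stood in 7.09% of the promoters of genes that rose, 2.33% of those of genes that fell and 3.64% of all. The TATA pattern stood in 12.6% of promoters of genes that rose, 4.30% of those of genes that fell and 7.88% of all. The interferon pattern stood in 6.28% of promoters of genes that rose, 1.61% of those of genes that fell and 3.38% of all, and the NF-kB pattern in 3.24% of promoters of genes that rose, 0.896% of those of genes that fell and 1.61% of all. A match is a run of letters, not a shown binding site, and none of the 4 patterns contains another.

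In all, 886 genes rose and 963 fell after 120 min of LPS, 5.08% and 5.52% of the genes tested (10.6% in either direction). Counts of gene lists below are to be read beside these shares. A gene is said to rise or fall where limma, fitted to log2(normalized reads + 1), gave an adjusted p (Benjamini-Hochberg over all genes tested) below 0.05. Changes are log2 fold changes of 120 over 0 min ± SE, with n = 2 libraries per group. The SE and the p-values use a spread pooled over all jointly processed libraries, those of the derived lines included. For a given gene the SE can therefore be larger or smaller than the scatter of the replicates compared. A call, or the lack of it, thus also depends on scatter within the derived lines. In bulk RNA, fewer cells that hold a transcript and less of it per cell cannot be told apart. The increases were the larger ones: the median was 1.54 among genes that rose and -1.08 among genes that fell, and 204 genes rose more than 8-fold while 21 fell more than 8-fold. Genes that rose held 19.4% and 16.7% of all reads at 120 min, against 7.11% and 6.62% at 0 min. Genes that fell held 2.25% and 2.44% of reads at 120 min, against 5.58% and 5.49% at 0 min. All 1849 called genes had ranges that did not overlap between the groups, as had 27.1% (120 min above) and 27.8% (120 min below) of all genes tested. Where ranges are said below not to overlap, this therefore adds no support to a call.

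The same 886 and 963 genes were among 1974 and 2163 called when the replicate number was added as a block, 11.3% and 12.4% of the genes tested. Without 120 min replicate 1 the counts were 385 and 341, and without 120 min replicate 2 they were 485 and 496. Without 0 min replicate 1 they were 426 and 316, and without 0 min replicate 2 they were 353 and 318. Of the genes that rose, 298 kept their call in each of these 4 fits, as did 239 of those that fell. Below, a gene said to fail without a library lost its call there, and a called gene with no such remark kept it without any 1 of the 4. Where a gene passed only with the replicate block, that fit's limma value is given as its block adjusted p.

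Calls were rarest at low levels. Of genes with a mean of 1 to 10 normalized reads 2.15% were called, and of those above 10000 the share was 15.9%, with 84 higher and 10 lower.

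Library depth ran from 27.4 M to 29.4 M reads, with 17149 to 17682 genes detected by 1 read or more. Each of the 11 macrophage markers listed had a read in every library, and their summed level was 512441 and 430369 normalized reads at 120 min, against 444127 and 397004 at 0 min. Cd14, which was higher at 120 min (below), is part of that sum, so its change is no measure of cell identity alone. Summed markers of B cells, neutrophils, mast cells, erythroid cells, fibroblasts and epithelium stayed at or below 12.7 normalized reads in each library. The 5 dendritic cell markers summed to 370.3 and 273 at 120 min, against 111 and 89.2 at 0 min, with Flt3 at 0 in all but 1 library. Part of that sum was Xcr1, with 177 and 131 at 120 min, against 6.53 and 8.11 at 0 min. Another part was Zbtb46, with 172 and 136 at 120 min, against 86.0 and 72.9 at 0 min. Of the T and NK cell markers, Lck held nearly the whole sum, with 244 and 104 at 120 min, against 138 and 124 at 0 min. Whether cells of another kind had a part in any result was not tested.

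**Figure D1:**
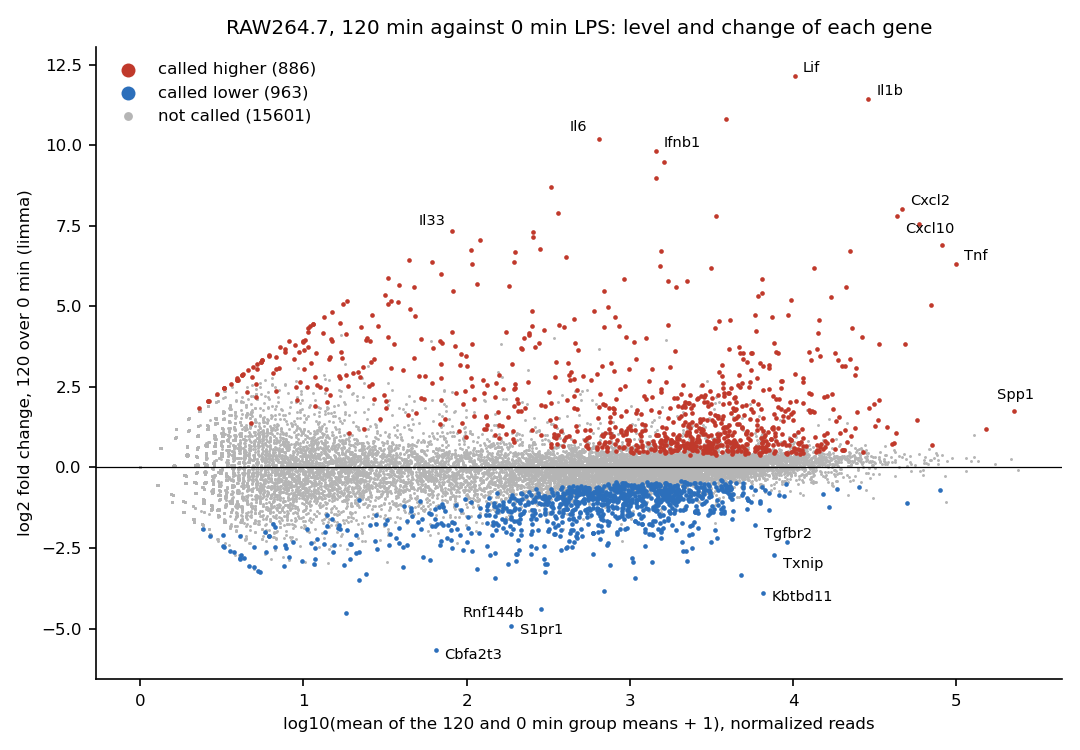
Level (log10 of the mean of the group means plus 1, normalized reads) against log2 fold change for the 17450 genes tested, each a point, in red for the 886 that rose, blue for the 963 that fell and grey for the rest. The increases reach 12.16 (Lif) and spread over all levels, while the decreases end at -5.67 (Cbfa2t3) and lie mostly at middle levels.

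On the log2(normalized reads + 1) scale the largest increase was that of Lif, a cytokine of the interleukin 6 family. Il6, which has no read at 0 min, ranked above Lif in edgeR (13.35 for Il6 and 12.09 for Lif) and DESeq2 (12.61 for Il6 and 12.18 for Lif). Without a 0 min read such a fitted value depends on the method, in edgeR on the prior count. Lif had 14895 and 25989.6 normalized reads at 120 min, against 7.62 and 1.16 at 0 min (log2 12.16 ± 0.94, 13.15 without 0 min replicate 1 and 11.16 without 0 min replicate 2, limma adjusted p = 6.2e-05). Il1b, which encodes the inflammasome-processed interleukin 1 beta, had 79992 and 35316 normalized reads at 120 min, against 26.1 and 12.7 at 0 min (log2 11.43 ± 1.32, 10.84 without 120 min replicate 1 and 12.02 without 120 min replicate 2, limma adjusted p = 0.00061). Both were nearly silent without LPS and among the well expressed genes at 120 min, with no overlap between the groups. Il1a, the gene of interleukin 1 alpha, had 9702 and 5796 normalized reads at 120 min, against 4.35 and 2.32 at 0 min (log2 10.80 ± 0.69, limma adjusted p = 2.1e-05). Ifnb1, the gene of interferon beta, had 3794 and 1947 normalized reads at 120 min, against 3.27 and 1.16 at 0 min (log2 9.81 ± 1.15, limma adjusted p = 0.00070). In 120 min replicate 1 the values of Il1b, Il1a and Ifnb1 were above those of replicate 2, and for Lif they were below. Csf3, the gene of granulocyte colony-stimulating factor, had 1959 and 3811 normalized reads at 120 min, against 3.27 and 5.79 at 0 min (log2 8.99 ± 0.63, limma adjusted p = 3.8e-05). Edn1, the gene of the vessel-constricting peptide endothelin, had 903 and 408 normalized reads at 120 min, against 0 and 1.16 at 0 min (log2 8.69 ± 0.84, limma adjusted p = 0.00022). The lowest 120 min value of each of these genes was far above its highest 0 min value.

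Among the 542 tested genes with no read in both 0 min libraries, which could not fall, 51 rose. Of the 576 with no read in both 120 min libraries, which could not rise, 15 fell. Over all genes tested 5.08% rose and 5.52% fell. For a gene without a 0 min read only a lower bound can be given, taken against a floor of 3 reads over the 0 min group. Il6 had 1375 and 584 reads at 120 min and none at 0 min, which made it at least 754-fold higher. Il33, the alarmin interleukin 33, had 128 and 118 reads at 120 min (at least 94.7-fold higher), and Cx3cl1, the membrane-bound chemokine fractalkine, had 70 and 63 (at least 51.2-fold). Tnfsf15, a TNF family ligand, had 131 reads in 120 min replicate 1 and 10 in replicate 2 (at least 54.3-fold), so that its value rests largely on 1 library. Flrt3, an adhesion protein, had 70 and 28 (at least 37.7-fold), the growth factor gene Areg 24 and 30 (at least 20.8-fold) and the chemokine gene Cxcl3 22 and 29 (at least 19.6-fold). Col5a3, a collagen chain, had 18 and 25 (at least 16.6-fold), while the hyaluronan synthase gene Has1 had 16 and 16 and Serpina3f 17 and 15 (at least 12.3-fold each). Tnfsf15 failed without either 0 min library (adjusted p 0.055 to 0.059) and Flrt3 failed without 120 min replicate 1 or either 0 min library (adjusted p 0.053 to 0.068).

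The largest decreases were smaller than the largest increases. Cbfa2t3, a corepressor of blood cell transcription, had 0 and 5.05 normalized reads at 120 min, against 110.0 and 141 at 0 min (log2 -5.67 ± 0.83, -4.38 without 120 min replicate 1 and -6.97 without 120 min replicate 2, limma adjusted p = 0.0023). S1pr1, the receptor for sphingosine phosphate that guides cells out of tissue, had 10.7 and 11.4 normalized reads at 120 min, against 413 and 311 at 0 min (log2 -4.90 ± 0.41, limma adjusted p = 8.9e-05). Rnf144b, a ubiquitin ligase gene, had 14.7 and 40.4 normalized reads at 120 min, against 420.2 and 669 at 0 min (log2 -4.38 ± 0.53, -3.68 without 120 min replicate 1 and -5.09 without 120 min replicate 2, limma adjusted p = 0.00087). All 3 were low at 120 min, and the groups did not overlap. Kbtbd11 was abundant at 0 min, with 755 and 875 normalized reads at 120 min, against 14622 and 10072 at 0 min (log2 -3.90 ± 0.49, limma adjusted p = 0.0010). St8sia4, a polysialic acid synthase gene, had 731 and 989.8 normalized reads at 120 min, against 9859 and 7666 at 0 min (log2 -3.35 ± 0.29, limma adjusted p = 0.00011). Further named genes of the 20 largest decreases were the circadian repressor Bhlhe41 (-3.43 ± 0.25), the Polycomb gene Cbx8 (-3.42 ± 0.37), the lysophosphatidic acid receptor gene Lpar5 (-3.23 ± 0.35) and the stress gene Sesn1 (-2.94 ± 0.24). Osgin1 (-3.16 ± 0.67), an oxidative stress gene, failed without any 1 of the 4 libraries (adjusted p 0.059 to 0.11).

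**Figure D2:**
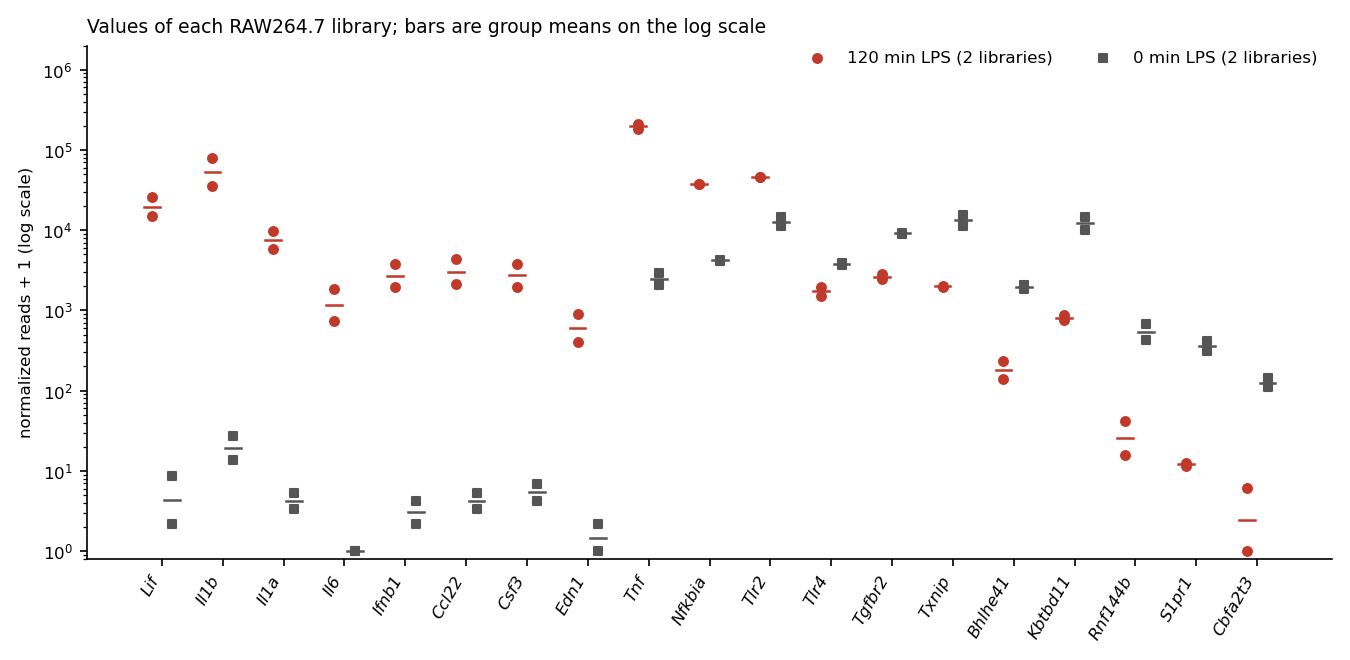
Normalized reads plus 1 (log axis) of 19 genes in each RAW264.7 library, 120 min (red circles) left of 0 min (grey squares), 2 libraries per group, with bars at the group means on the log scale. The 8 genes at the left stand at or below 26.1 normalized reads at 0 min, Tnf, Nfkbia and Tlr2 are higher at 120 min and already abundant at 0 min, and the 8 genes at the right stand lower at 120 min.

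The receptors and adaptors of the LPS pathway changed in both directions. Of 25 such genes tested, 6 (9 with the replicate block, 3 to 5 without 1 library) rose and 3 (2 without 1 library) fell, with a median of 0.32 (0.00 over all genes tested). Tlr4 itself fell, with 1524 and 1942 normalized reads at 120 min, against 3660.2 and 3904 at 0 min (log2 -1.14 ± 0.14, limma adjusted p = 0.0010). The coreceptor gene Cd14 rose, with 98517 and 71377 at 120 min, against 30687 and 29931 at 0 min (log2 1.47 ± 0.28, limma adjusted p = 0.0095). The gene of the adaptor TRIF, Ticam1, rose with 3575 and 3796 at 120 min, against 896 and 936 at 0 min (log2 2.01 ± 0.17, limma adjusted p = 8.3e-05). Receptor and coreceptor thus moved in opposite directions, with no overlap between the groups in any of the 3. Peli1, a ubiquitin ligase of the TRIF arm, rose (log2 3.86 ± 0.33, limma adjusted p = 0.00010), as did Ikbke, the gene of the IRF3 kinase IKK epsilon (log2 2.50 ± 0.35, limma adjusted p = 0.0020). Tifa, which carries the signal of a bacterial sugar metabolite to TRAF6, fell (log2 -2.35 ± 0.36, -2.95 without 120 min replicate 1 and -1.75 without 120 min replicate 2, limma adjusted p = 0.0032). Myd88 (0.72 ± 0.25, block adjusted p = 0.00088), the TLR4 partner Ly96 (0.09 ± 0.27), the kinase gene Irak4 (-0.35 ± 0.19) and Tbk1 (0.32 ± 0.14) did not pass. Cd14 failed without 120 min replicate 1 or either 0 min library (adjusted p 0.063 to 0.091).

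Other pattern receptors showed the same mixture, 8 (12 with the replicate block, 5 to 7 without 1 library) of 28 higher and 3 (6 with the replicate block, 1 to 3 without 1 library) lower (median 0.17). Tlr2, the receptor for bacterial lipoproteins, had 45666 and 45643 normalized reads at 120 min, against 11106 and 14408 at 0 min (log2 1.85 ± 0.22, limma adjusted p = 0.00068). Clec4e, the receptor for mycobacterial cord factor also called Mincle, had 45542 and 35635 at 120 min, against 4605 and 3264 at 0 min (log2 3.38 ± 0.22, limma adjusted p = 2.3e-05). The inflammasome sensor gene Nlrp3 had 30024 and 36487 at 120 min, against 2452 and 3310.4 at 0 min (log2 3.54 ± 0.27, limma adjusted p = 5.9e-05). Each of the 3 was well expressed already at 0 min. Casp4, the intracellular LPS sensor known in mice as caspase 11, rose (log2 1.65 ± 0.26, limma adjusted p = 0.0033), and so did Mefv, the gene of pyrin (log2 3.84 ± 0.52, limma adjusted p = 0.0016). Lower values were seen for Nlrp1b, a sensor of anthrax toxin (log2 -1.09 ± 0.17, limma adjusted p = 0.0031), and for Tlr13, a receptor for bacterial ribosomal RNA (log2 -2.61 ± 0.46, limma adjusted p = 0.0064). Tlr13 failed without 120 min replicate 1 or 0 min replicate 2 (adjusted p 0.061 to 0.067). The gene of the executing protease Casp1 (-0.04 ± 0.14) and the pore gene Gsdmd (0.25 ± 0.33) did not pass.

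Of the NF-kB subunits, each of the 5 genes rose. Rel had 8357 and 9744 normalized reads at 120 min, against 776 and 997 at 0 min (log2 3.36 ± 0.28, limma adjusted p = 8.3e-05). Nfkb1 had 27818 and 25145 at 120 min, against 5585 and 5783 at 0 min (log2 2.22 ± 0.16, limma adjusted p = 4.1e-05). Nfkb2 had 13193 and 11034 at 120 min, against 2305 and 2144 at 0 min (log2 2.44 ± 0.20, limma adjusted p = 8.9e-05). Relb stood at 1.90 ± 0.16 and Rela, the least changed, at 0.98 ± 0.16. The 0 min ranges lay below the 120 min ranges in all 5. None of the genes of the activating IkB kinase complex passed, with Chuk (0.39 ± 0.11, block adjusted p = 0.011), Ikbkb (0.31 ± 0.13, block adjusted p = 0.029) and Ikbkg (-0.45 ± 0.23, block adjusted p = 0.017).

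Every tested gene of the IkB family rose, 7 (4 to 5 without 1 library) of 7 (median 2.53). The nuclear cofactor gene Nfkbiz had 45163 and 42815 normalized reads at 120 min, against 426 and 412 at 0 min (log2 6.71 ± 0.21, limma adjusted p = 5.2e-07). Nfkbia, the gene of IkB alpha, which holds NF-kB in the cytoplasm, had 37677 and 37779.9 at 120 min, against 4245 and 4174 at 0 min (log2 3.16 ± 0.13, limma adjusted p = 2.4e-06). Nfkbib (2.21 ± 0.22) and Bcl3 (2.53 ± 0.36) were intermediate. Replicates of Nfkbia were close in each group, and no range overlapped. Nfkbie (2.55 ± 0.65) failed without any 1 of the 4 libraries (adjusted p 0.088 to 0.21), and Nfkbid (2.11 ± 0.53) failed without any 1 of the 4 libraries (adjusted p 0.069 to 0.20). In the list of A20 partners, TRAFs and survival genes 9 (12 with the replicate block, 7 to 9 without 1 library) of 17 rose and none fell (median 1.25). Tnfaip3, which encodes A20, had 34331 and 31941 normalized reads at 120 min, against 751 and 936 at 0 min (log2 5.30 ± 0.20, limma adjusted p = 1.1e-06). Traf1 had 31209 and 24149 at 120 min, against 1306 and 998 at 0 min (log2 4.59 ± 0.29, limma adjusted p = 2.1e-05). The caspase 8 inhibitor gene Cflar had 20176 and 19432 at 120 min, against 2997 and 3356 at 0 min (log2 2.64 ± 0.16, limma adjusted p = 1.9e-05). The nearly identical Bcl2a1a (4.71 ± 0.70, 5.36 without 0 min replicate 1 and 4.05 without 0 min replicate 2) and Bcl2a1d (3.13 ± 0.47), which encode copies of the survival protein A1, also rose, but reads of such copies can be split between them. The gene of the deubiquitinase Cyld (-0.43 ± 0.16, block adjusted p = 0.0098) did not pass.

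In the list of MAP kinase phosphatases and feedback genes, 11 (12 with the replicate block, 9 to 10 without 1 library) of 28 genes rose and 2 (4 with the replicate block, 1 to 2 without 1 library) fell (median 0.43). Dusp1, the phosphatase of p38 and JNK, had 13141 and 12179 normalized reads at 120 min, against 243 and 200.3 at 0 min (log2 5.84 ± 0.21, limma adjusted p = 1.1e-06). Dusp5, a nuclear phosphatase of ERK, had 4606 and 7851 at 120 min, against 84.9 and 78.7 at 0 min (log2 6.18 ± 0.51, limma adjusted p = 8.0e-05). Dusp2 had 5453 and 10408 at 120 min, against 307 and 324 at 0 min (log2 4.57 ± 0.29, limma adjusted p = 2.1e-05). The 120 min values of Dusp5 and Dusp2 were higher in replicate 2, those of Dusp1 close in both. Dusp4 (2.78 ± 0.35), Dusp8 (3.84 ± 0.55) and Dusp16 (1.66 ± 0.14) rose too, as did Gadd45b (4.54 ± 0.29), which binds MAP kinase kinases, and the kinase gene Map3k8 (1.97 ± 0.20). Dusp7 fell, with 256 and 282 at 120 min, against 803 and 641 at 0 min (log2 -1.42 ± 0.17, limma adjusted p = 0.00072). Rps6ka5, the gene of the H3 serine kinase MSK1, fell (log2 -1.31 ± 0.22, limma adjusted p = 0.0047). Its relative Rps6ka4 (MSK2) stood at -0.01 ± 0.13 and did not pass. Rps6ka5 failed without 120 min replicate 1 or 0 min replicate 1 (adjusted p 0.051 to 0.054). Dusp6 (-1.26 ± 0.43, block adjusted p = 0.041) did not pass.

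Immediate early transcription factors rose at 19 (21 with the replicate block, 9 to 13 without 1 library) of 38 genes and fell at 1 (4 with the replicate block) (median 1.29). Nr4a3, an orphan nuclear receptor gene, had 338 and 434 normalized reads at 120 min, against 5.44 and 2.32 at 0 min (log2 6.38 ± 0.84, limma adjusted p = 0.0014). Myc had 3977 and 3540.0 at 120 min, against 133 and 42.8 at 0 min (log2 5.61 ± 0.60, 6.42 without 0 min replicate 1 and 4.81 without 0 min replicate 2, limma adjusted p = 0.00038). Junb had 33702 and 37606 at 120 min, against 4017 and 4077 at 0 min (log2 3.14 ± 0.20, limma adjusted p = 2.1e-05). At 0 min Nr4a3 and Myc were low and Junb was not, and all 3 rose clear of their 0 min range. Csrnp1 (4.67 ± 0.40), Ier3 (3.57 ± 0.35) and the small Maf gene Maff (3.25 ± 0.30) rose, and the Krüppel-like factor gene Klf11 fell (log2 -2.72 ± 0.44, limma adjusted p = 0.0038). Fos (-1.29 ± 0.43, block adjusted p = 0.036), Jun (-1.58 ± 0.72, block adjusted p = 0.014), Klf4 (-2.29 ± 0.76, block adjusted p = 0.00038) and Nr4a1 (0.33 ± 0.53) did not pass.

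Transcripts of cytokines are cleared by RNA-binding decay factors, and 5 (7 with the replicate block, 4 to 5 without 1 library) of 14 such genes rose while 1 fell (median 0.31). Zc3h12a, the gene of the RNase Regnase-1, had 10542 and 12108 normalized reads at 120 min, against 456 and 394 at 0 min (log2 4.73 ± 0.21, limma adjusted p = 2.5e-06). Zc3h12c had 14215 and 11312 at 120 min, against 1511 and 1320.0 at 0 min (log2 3.17 ± 0.24, limma adjusted p = 5.3e-05). Within the tristetraprolin family the members diverged. Zfp36 rose, with 12938 and 12555 at 120 min, against 1315 and 1732 at 0 min (log2 3.08 ± 0.32, limma adjusted p = 0.00034). Zfp36l2 fell, with 816 and 1333 at 120 min, against 5879 and 4509 at 0 min (log2 -2.30 ± 0.30, limma adjusted p = 0.0012). Zfp36l1 stood at -0.02 ± 0.27 and did not pass. The Roquin gene Rc3h1 rose (1.14 ± 0.18).

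Chemokine genes had the highest median of the 41 lists, 4.57, with 15 (18 with the replicate block, 10 to 14 without 1 library) of 22 higher and none lower. Genes silent in RAW264.7 at 0 min pass the filter on low values only through reads in other libraries, among them those at 120 min. So such counts describe the lists and test nothing. Ccl4 had 207494 and 115173 normalized reads at 120 min, against 1600.4 and 1051 at 0 min (log2 6.90 ± 0.62, limma adjusted p = 0.00014). The related monocyte attractant gene Ccl3 had 165861 and 105246 at 120 min, against 4098 and 4003 at 0 min (log2 5.03 ± 0.63, limma adjusted p = 0.0010). Cxcl2, which draws neutrophils, had 96808 and 89109 at 120 min, against 521 and 243 at 0 min (log2 8.02 ± 0.42, limma adjusted p = 8.4e-06). Cxcl10, an interferon-inducible attractant of T cells, had 111075 and 60588 at 120 min, against 416 and 323 at 0 min (log2 7.80 ± 0.67, limma adjusted p = 9.9e-05). Those 4 reached between 60588 and 207494 normalized reads in each 120 min library. Ccl5 had 9986 and 3540.0 at 120 min, against 18.5 and 34.7 at 0 min (log2 7.82 ± 1.02, 7.07 without 120 min replicate 1 and 8.56 without 120 min replicate 2, limma adjusted p = 0.0013). Ccl2 had 4623 and 4191 at 120 min, against 67.5 and 90.3 at 0 min (log2 5.80 ± 0.90, limma adjusted p = 0.0032). Ccl7 had 256 and 170.4 at 120 min, against 1.09 and 2.32 at 0 min (log2 6.32 ± 0.56, limma adjusted p = 0.00013). Ccl22 had the largest change of the list (9.49 ± 1.75) but failed without 120 min replicate 1 or either 0 min library (adjusted p 0.051 to 0.068). Cxcl1 (2.49 ± 0.71, block adjusted p = 0.022) did not pass.

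Interleukin and interferon genes rose at 9 (10 with the replicate block, 8 without 1 library) of 16 (median 3.65). Besides Il1a, Il1b, Il6, Il33 and Ifnb1, Il27 had 4170.0 and 1945 normalized reads at 120 min, against 39.2 and 17.4 at 0 min (log2 6.71 ± 0.91, limma adjusted p = 0.0016). The restraining cytokine gene Il10 had 374 and 339.6 at 120 min, against 6.53 and 5.79 at 0 min (log2 5.64 ± 0.55, limma adjusted p = 0.00023). Il1rn, the gene of the interleukin 1 receptor antagonist, had 9591 and 10682 at 120 min, against 1043 and 716 at 0 min (log2 3.55 ± 0.35, limma adjusted p = 0.00023). Genes of inflammatory and of restraining cytokines thus rose side by side. Il18 (0.07 ± 0.54), Il15 (1.03 ± 0.96) and Il16 (-0.86 ± 0.28, block adjusted p = 0.013) did not pass, and Il12a and Il12b were listed at 0 in all 4 libraries. Il23a (3.76 ± 0.96, 2.88 without 120 min replicate 1 and 4.65 without 120 min replicate 2) failed without any 1 of the 4 libraries (adjusted p 0.052 to 0.23).

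Growth factor genes rose at 10 (13 with the replicate block, 8 to 9 without 1 library) of 18 (median 2.80). The 3 colony-stimulating factors were among them. Besides Csf3 (above), Csf2 had 444 and 339.6 normalized reads at 120 min, against 3.27 and 2.32 at 0 min (log2 6.69 ± 0.64, limma adjusted p = 0.00021). Csf1 had 663 and 377 at 120 min, against 38.1 and 28.9 at 0 min (log2 3.87 ± 0.49, limma adjusted p = 0.0010). Osm, which belongs to the family of Lif, had 1019 and 1414 at 120 min, against 115 and 155 at 0 min (log2 3.16 ± 0.34, limma adjusted p = 0.00043). Tgfb1 was already high at 0 min, with 10829 and 10508 at 120 min, against 4709 and 4172 at 0 min (log2 1.27 ± 0.13, limma adjusted p = 0.00038). Vegfa (0.64 ± 0.41, block adjusted p = 0.014) and Igf1 (-0.16 ± 0.53) did not pass.

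In the TNF family 7 (9 with the replicate block, 5 to 7 without 1 library) of 23 genes rose and 1 (2 with the replicate block, 0 to 1 without 1 library) fell (median 1.08). Tnf had 212251 and 181696 normalized reads at 120 min, against 2059.8 and 2925 at 0 min (log2 6.32 ± 0.40, limma adjusted p = 2.1e-05), which placed it among the genes with the most reads at 120 min. Its receptor gene Tnfrsf1b had 8347 and 9893 at 120 min, against 1487 and 1757 at 0 min (log2 2.49 ± 0.15, limma adjusted p = 1.7e-05). The death receptor gene Fas had 2069.7 and 1212 at 120 min, against 119 and 47.5 at 0 min (log2 4.38 ± 0.48, 5.03 without 0 min replicate 1 and 3.73 without 0 min replicate 2, limma adjusted p = 0.00046). Tnfsf9 (1.94 ± 0.19) and the costimulatory receptor gene Cd40 (3.61 ± 0.45) rose. Tnfrsf1a (0.46 ± 0.14, block adjusted p = 0.018) did not pass.

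Receptor genes for cytokines and growth factors held more decreases than increases, 2 (6 with the replicate block, 1 to 2 without 1 library) higher and 5 (10 with the replicate block, 2 to 4 without 1 library) lower of 31 (median -0.24). Those were 6.45% higher and 16.1% lower, against 5.08% and 5.52% of all genes tested. Tgfbr2, a receptor of TGF-beta, had 2802 and 2474 normalized reads at 120 min, against 9256 and 8983 at 0 min (log2 -1.79 ± 0.13, limma adjusted p = 3.8e-05). Il6st, the signalling chain gp130 shared by receptors of Il6, Lif and Osm, had 1865 and 2439 at 120 min, against 4622 and 4929 at 0 min (log2 -1.16 ± 0.16, limma adjusted p = 0.0016). Lifr, the partner chain for Lif, had 11.99 and 12.6 at 120 min, against 116 and 69.5 at 0 min (log2 -2.77 ± 0.49, limma adjusted p = 0.0063). So receptor chains of Lif and TGF-beta fell in the libraries in which Lif and Tgfb1 rose, and the groups did not overlap. Lifr failed without 120 min replicate 1 or 0 min replicate 1 (adjusted p 0.050 to 0.066). Csf1r, the receptor of macrophage growth factor (-0.24 ± 0.20), Ifnar1 (-0.08 ± 0.13) and Ifngr1 (-0.74 ± 0.22, block adjusted p = 0.0016) did not pass. Il18rap rose (0.81 ± 0.11).

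Of 18 chemoattractant receptor genes 5 (7 with the replicate block) rose and 1 (3 with the replicate block, 0 to 1 without 1 library) fell (median 0.74). C5ar1, the receptor for complement fragment C5a, had 15320.2 and 14168 normalized reads at 120 min, against 2611 and 1993 at 0 min (log2 2.69 ± 0.21, limma adjusted p = 6.4e-05). C3ar1, for C3a, had 8195 and 7513 at 120 min, against 1276 and 1407 at 0 min (log2 2.55 ± 0.43, limma adjusted p = 0.0047). Ptafr, for platelet-activating factor, had 4932 and 4358 at 120 min, against 876 and 1158 at 0 min (log2 2.20 ± 0.25, limma adjusted p = 0.00053). Ccrl2, an atypical receptor that holds the attractant chemerin at the cell surface, had 4344 and 2344 at 120 min, against 57.7 and 56.7 at 0 min (log2 5.78 ± 0.59, limma adjusted p = 0.00030). Fpr1, for formylated bacterial peptides, had 13 and 18 reads at 120 min and none at 0 min. Cxcr4, which retains cells in bone marrow, fell (-2.35 ± 0.45) but failed without 120 min replicate 2 or either 0 min library (adjusted p 0.058 to 0.073).

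In the list of IRFs, STATs, JAKs and SOCS genes 14 (19 with the replicate block, 7 to 8 without 1 library) of 29 rose and none fell (median 0.67). Socs3, the inhibitor of gp130 signalling, had 20075 and 17855 normalized reads at 120 min, against 717 and 364 at 0 min (log2 5.21 ± 0.34, limma adjusted p = 2.1e-05). Cish, an inhibitor of STAT5 signalling, had 807 and 633 at 120 min, against 3.27 and 1.16 at 0 min (log2 7.88 ± 0.97, limma adjusted p = 0.00091). Socs1, an inhibitor of interferon signalling, had 561 and 347 at 120 min, against 29.4 and 18.5 at 0 min (log2 4.18 ± 0.45, limma adjusted p = 0.00043). Pim1, a kinase gene downstream of STATs, had 19478 and 16239 at 120 min, against 775 and 565 at 0 min (log2 4.75 ± 0.27, limma adjusted p = 1.6e-05). The kinase gene Jak2 had 7584 and 5722 at 120 min, against 1574 and 1115 at 0 min (log2 2.31 ± 0.34, limma adjusted p = 0.0024). Irf1 (3.54 ± 0.65) failed without 120 min replicate 1 or either 0 min library (adjusted p 0.057 to 0.071). Stat2 (0.67 ± 0.52), Irf7 (1.06 ± 0.80, block adjusted p = 0.037) and Irf3 (0.13 ± 0.13) did not pass.

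Interferon-stimulated genes rose at 18 of 49 and none fell (median 1.78). With the replicate block 37 rose, and 6 to 12 did without 1 library. Slfn2, a Schlafen family gene, had 45792 and 40935 normalized reads at 120 min, against 5028 and 5102 at 0 min (log2 3.10 ± 0.16, limma adjusted p = 7.7e-06). Oasl1, a repressor of Irf7 translation in mice, had 51329 and 35756 at 120 min, against 2025 and 2288 at 0 min (log2 4.31 ± 0.49, limma adjusted p = 0.00058). Ifih1, the RNA sensor MDA5, had 31978 and 22104 at 120 min, against 1486 and 1452 at 0 min (log2 4.18 ± 0.60, limma adjusted p = 0.0021). Rsad2, the antiviral enzyme viperin, had 42406 and 10624 at 120 min, against 320.1 and 267 at 0 min (log2 6.18 ± 0.97, 5.18 without 120 min replicate 1 and 7.17 without 120 min replicate 2, limma adjusted p = 0.0033). At Rsad2 the 120 min replicates differed widely, at Slfn2 hardly. Tor3a (1.58 ± 0.17) and the guanylate-binding protein gene Gbp3 (3.86 ± 0.63, 3.20 without 120 min replicate 1 and 4.52 without 120 min replicate 2) rose as well. Ifit1 (5.31 ± 1.14, 4.42 without 120 min replicate 1 and 6.19 without 120 min replicate 2) failed without 120 min replicate 1 or either 0 min library (adjusted p 0.087 to 0.13). Mx1 (3.65 ± 0.76) failed without 120 min replicate 1 or either 0 min library (adjusted p 0.081 to 0.12). Isg15 (4.23 ± 0.94) failed without any 1 of the 4 libraries (adjusted p 0.053 to 0.14). In each of these 3 genes 120 min replicate 1 was the higher one. Ifit2 (2.67 ± 0.98, block adjusted p = 0.0099), Usp18 (1.53 ± 0.56, block adjusted p = 0.0031) and Oas3 (0.43 ± 0.54) did not pass.

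Enzymes and secreted proteins of activated macrophages rose at 14 (21 with the replicate block, 9 to 11 without 1 library) of 36 and none fell (median 0.88). Irg1, which makes the antibacterial metabolite itaconate, had 156796 and 79239 normalized reads at 120 min, against 815 and 424 at 0 min (log2 7.56 ± 0.47, limma adjusted p = 2.0e-05). Hdc, which makes histamine, had 1048 and 708 at 120 min, against 29.4 and 40.5 at 0 min (log2 4.60 ± 0.51, limma adjusted p = 0.00047). Saa3, an acute-phase protein gene, had 1337 and 1004 at 120 min, against 39.2 and 38.2 at 0 min (log2 4.87 ± 0.41, limma adjusted p = 8.9e-05). Marcks, a kinase C substrate at the membrane, had 659 and 349.7 at 120 min, against 1.09 and 3.47 at 0 min (log2 7.30 ± 1.05, limma adjusted p = 0.0022). Its relative Marcksl1 had 57369 and 41954 at 120 min, against 3362 and 2567 at 0 min (log2 4.06 ± 0.25, limma adjusted p = 2.0e-05). Marcks was nearly silent at 0 min and Marcksl1 was not, and both stood clear of their 0 min range. Sod2, the mitochondrial superoxide dismutase gene, rose (log2 1.66 ± 0.15, limma adjusted p = 0.00016). Nos2, the inducible nitric oxide synthase gene, had 940.3 and 341 at 120 min, against 69.7 and 16.2 at 0 min (4.02 ± 1.49, block adjusted p = 0.00064) and did not pass. Arg1 (-0.38 ± 0.92), Hmox1 (0.13 ± 0.53) and the lysozyme gene Lyz2 (-0.07 ± 0.30) did not pass.

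In the prostaglandin pathway the synthetic genes Ptgs2 and Ptges rose and Hpgd, of the breakdown enzyme, fell. Ptgs2, cyclooxygenase 2, had 52445 and 29976 normalized reads at 120 min, against 886 and 749 at 0 min (log2 5.60 ± 0.41, limma adjusted p = 4.7e-05). Ptges, which makes prostaglandin E2, had 197 and 229 at 120 min, against 40.3 and 44.0 at 0 min (log2 2.31 ± 0.37, limma adjusted p = 0.0039). Hpgd, whose product inactivates prostaglandins, had 170.5 and 337 at 120 min, against 1641 and 2031 at 0 min (log2 -2.92 ± 0.78, limma adjusted p = 0.042). The receptor gene Ptger2 rose (5.13 ± 1.36, 6.18 without 0 min replicate 1 and 4.08 without 0 min replicate 2). Hpgd failed without any 1 of the 4 libraries (adjusted p 0.089 to 0.24), and Ptger2 failed without any 1 of the 4 libraries (adjusted p 0.082 to 0.25). Of all 17 genes 3 (2 without 1 library) rose and 1 (4 with the replicate block, 0 without 1 library) fell, and the constitutive enzyme Ptgs1 (-0.62 ± 0.65) and the leukotriene enzyme gene Alox5 (-0.13 ± 0.35) did not pass.

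Surface genes of costimulation and adhesion rose at 11 (17 with the replicate block, 8 to 11 without 1 library) of 35 and fell at 2 (1 without 1 library) (median 0.61). Cd69, an early activation marker of leukocytes, had 674 and 341 normalized reads at 120 min, against 4.35 and 1.16 at 0 min (log2 7.14 ± 0.63, 7.80 without 0 min replicate 1 and 6.49 without 0 min replicate 2, limma adjusted p = 0.00012). The integrin gene Itga5 had 34805 and 33681 at 120 min, against 3352 and 3399.6 at 0 min (log2 3.34 ± 0.18, limma adjusted p = 9.0e-06). Icam1, the ligand of leukocyte integrins, had 22504 and 17470.3 at 120 min, against 3110.4 and 2726 at 0 min (log2 2.77 ± 0.23, limma adjusted p = 7.8e-05). Cd83 had 26733 and 24924 at 120 min, against 1808 and 2301 at 0 min (log2 3.66 ± 0.28, limma adjusted p = 5.5e-05). All 4 stayed clear of their 0 min range. The ICOS ligand gene Icosl (2.68 ± 0.40) and the inhibitory receptor gene Lilrb4 (2.28 ± 0.32) rose, while Cd86 (1.34 ± 0.67) and Cd274 (2.28 ± 0.69, block adjusted p = 0.0027), which encodes the checkpoint ligand PD-L1, did not pass. Sirpa, the receptor for the signal CD47, fell with 9214 and 10865 at 120 min, against 22148 and 24316 at 0 min (log2 -1.21 ± 0.17, limma adjusted p = 0.0017).

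Receptors for lipids, purines and metabolites were divided, 6 (10 with the replicate block, 1 to 4 without 1 library) higher and 5 (7 with the replicate block, 3 to 6 without 1 library) lower of 34 (median -0.02). Gpr183, which steers cells along oxysterol gradients, had 542 and 492 normalized reads at 120 min, against 4747 and 3181 at 0 min (log2 -2.91 ± 0.31, limma adjusted p = 0.00038). Cnr2, the cannabinoid receptor of immune cells, had 50.6 and 69.4 at 120 min, against 384 and 332 at 0 min (log2 -2.57 ± 0.42, limma adjusted p = 0.0041). Hcar2, the receptor for niacin and hydroxybutyrate, had 2983 and 1774 at 120 min, against 148 and 133 at 0 min (log2 4.02 ± 0.41, limma adjusted p = 0.00031). With S1pr1, the 2 guidance receptor genes named here fell, whereas Hcar2 rose. Adora2a, an adenosine receptor gene, rose (3.98 ± 0.69) but failed without 120 min replicate 1 or 0 min replicate 2 (adjusted p 0.050 to 0.061). Gpr84, for medium-chain fatty acids, rose (3.33 ± 0.62) but failed without any 1 of the 4 libraries (adjusted p 0.050 to 0.066). P2rx7, the ATP-gated channel gene, fell (-1.48 ± 0.35) but failed without any 1 of the 4 libraries (adjusted p 0.058 to 0.18).

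Plasminogen activation, coagulation and matrix protease genes rose at 11 (13 with the replicate block, 5 to 10 without 1 library) of 25 and none fell (median 1.24). Plaur, the receptor of urokinase, had 15653 and 14108 normalized reads at 120 min, against 1409.9 and 1138 at 0 min (log2 3.55 ± 0.29, limma adjusted p = 8.3e-05). Serpinb2, an inhibitor of plasminogen activation, had 246 and 231 at 120 min, against 2.18 and 0 at 0 min (log2 7.07 ± 1.003, 7.90 without 0 min replicate 1 and 6.24 without 0 min replicate 2, limma adjusted p = 0.0021). Mmp9, gelatinase B, had 139.8 and 226 at 120 min, against 33.7 and 26.6 at 0 min (log2 2.53 ± 0.28, limma adjusted p = 0.00049). The gene of urokinase itself, Plau (0.33 ± 0.75), did not pass, and Plat, of the tissue activator, rose (4.93 ± 0.86, 6.38 without 0 min replicate 1 and 3.47 without 0 min replicate 2). F3, which encodes the coagulation starter tissue factor, rose (5.46 ± 1.197, 4.65 without 120 min replicate 1 and 6.28 without 120 min replicate 2 and 7.10 without 0 min replicate 1 and 3.82 without 0 min replicate 2) but failed without 120 min replicate 1 or 0 min replicate 2 (adjusted p 0.14).

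Among GTPase regulators 12 (16 with the replicate block, 7 to 9 without 1 library) of 33 rose and 5 (8 with the replicate block, 2 to 4 without 1 library) fell (median 0.67). Rnd1, an antagonist of RhoA, had 3042 and 1004 normalized reads at 120 min, against 184 and 153 at 0 min (log2 3.37 ± 0.43, 2.57 without 120 min replicate 1 and 4.17 without 120 min replicate 2, limma adjusted p = 0.0012). The Rap exchange factor gene Rapgef2 had 9126 and 9152 at 120 min, against 2084 and 2341 at 0 min (log2 2.05 ± 0.20, limma adjusted p = 0.00023). Swap70 (1.72 ± 0.25) and Rhoc (2.31 ± 0.34) rose as well. Fgd4, an exchange factor of Cdc42, had 1465 and 899 at 120 min, against 3943 and 3521 at 0 min (log2 -1.70 ± 0.25, limma adjusted p = 0.0023). Rasgef1b and Iqsec1 are given with the edited lines below.

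**Figure D3:**
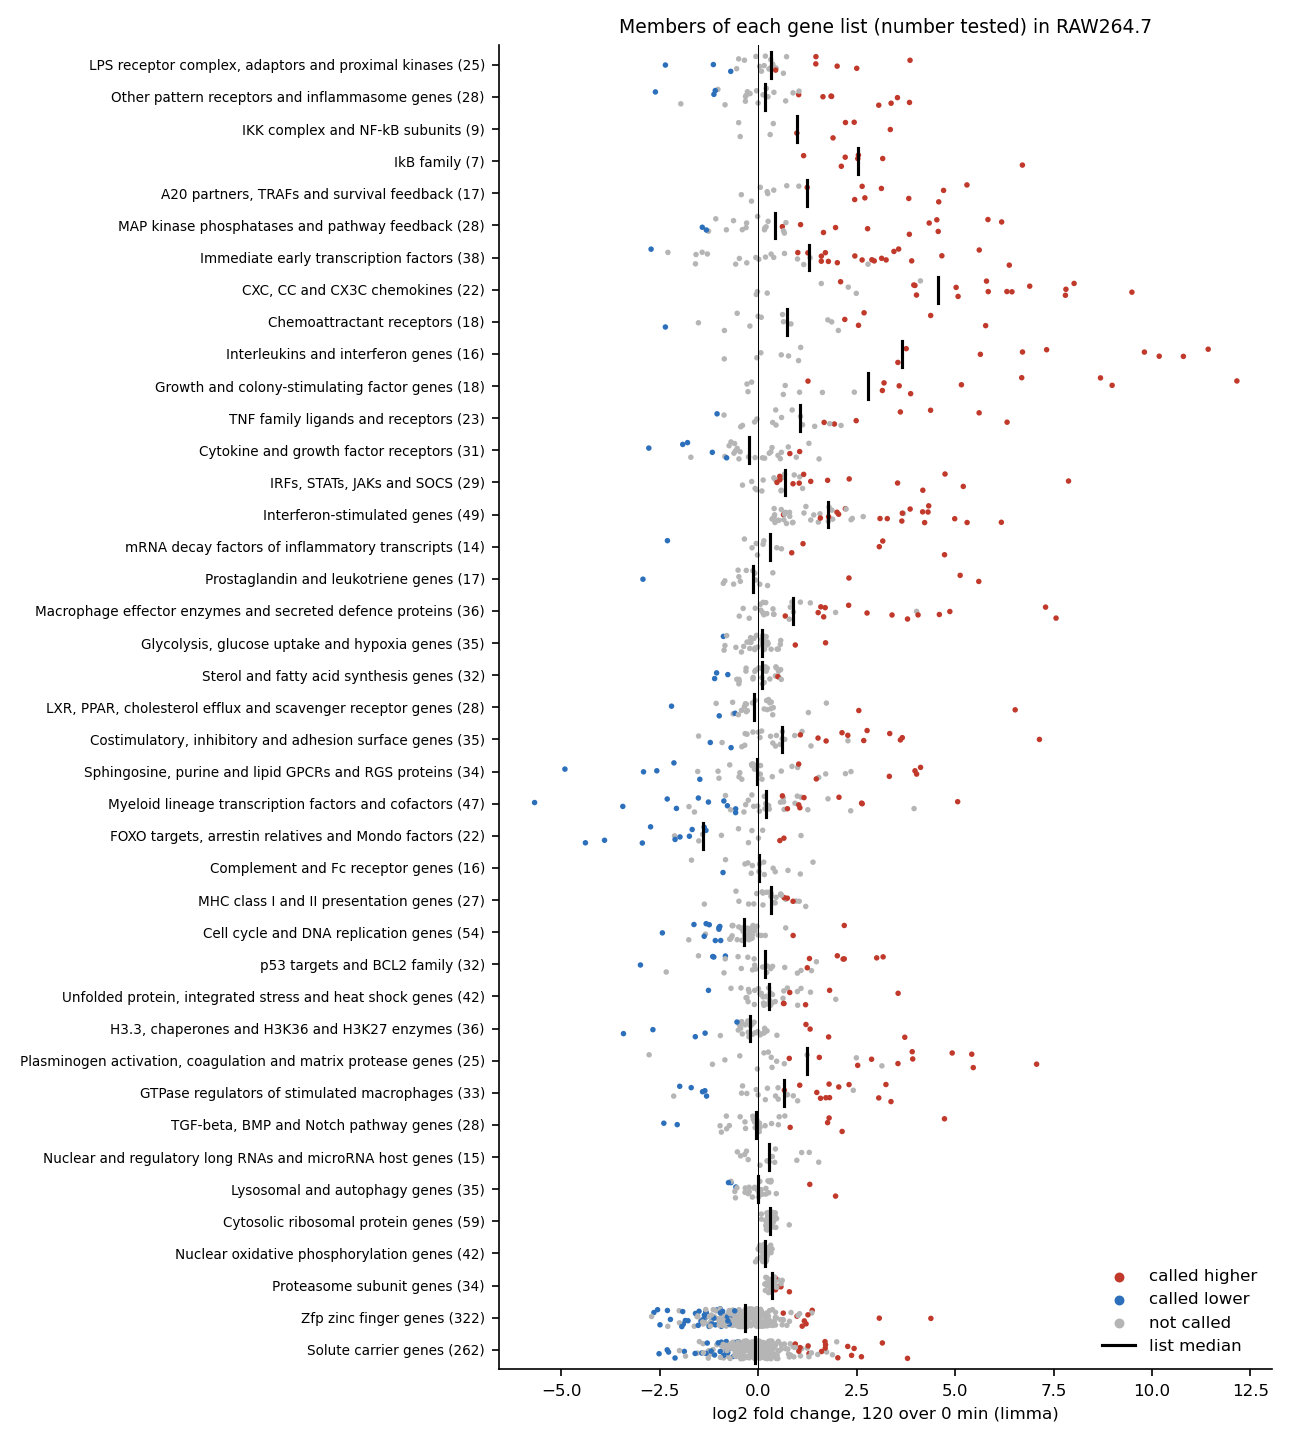
Log2 fold change of each tested member of 41 gene lists (number tested in brackets), red for genes that rose, blue for those that fell, grey for the rest, with a black bar at the list median. Chemokines (4.57), interleukins (3.65) and growth factors (2.80) have the highest medians and the FOXO and arrestin list (-1.39) the lowest; ribosomal and oxidative phosphorylation genes hold no called gene.

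The list of FOXO targets, arrestin relatives and Mondo factors had the highest share of decreases of the 41 lists, 2 (3 with the replicate block, 0 to 1 without 1 library) higher and 10 (14 with the replicate block, 6 to 8 without 1 library) lower of 22 (median -1.39). Txnip, which restrains glucose uptake and thioredoxin, had 1949.8 and 2029 normalized reads at 120 min, against 15315 and 11368 at 0 min (log2 -2.73 ± 0.21, limma adjusted p = 6.4e-05). Sesn1 had 259.7 and 375 at 120 min, against 2212 and 2603 at 0 min (log2 -2.94 ± 0.24, limma adjusted p = 7.8e-05). Its relative Sesn2 (1.09 ± 0.31, block adjusted p = 0.024) did not pass. Arrdc2, an arrestin relative of Txnip, had 117 and 112 at 120 min, against 372 and 402 at 0 min (log2 -1.74 ± 0.21, limma adjusted p = 0.00082). Fbxo21, a ubiquitin ligase subunit gene, had 467 and 557 at 120 min, against 1754 and 1515 at 0 min (log2 -1.67 ± 0.21, limma adjusted p = 0.0010). The factor gene Foxo3 fell (-1.32 ± 0.26) but failed without 120 min replicate 1 or either 0 min library (adjusted p 0.076 to 0.11). The glucocorticoid-induced gene Tsc22d3 fell (-1.98 ± 0.33) but failed without 0 min replicate 1 (adjusted p 0.053). The list also holds Rnf144b (-4.38) and Kbtbd11 (-3.90), given above among the largest decreases. The 41 lists were put together with results of these libraries known, so no count is independent evidence of a direction.

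Myeloid transcription factors were split, 9 (12 with the replicate block, 5 to 6 without 1 library) higher and 10 (14 with the replicate block, 4 to 8 without 1 library) lower of 47 (median 0.19). Fli1, an ETS factor gene, had 538 and 467 normalized reads at 120 min, against 2134 and 2092 at 0 min (log2 -2.07 ± 0.18, limma adjusted p = 0.00011). Its relative Ets2 had 13544 and 20168 at 120 min, against 3433 and 4615 at 0 min (log2 2.05 ± 0.28, limma adjusted p = 0.0016). Cebpd had 3117 and 2598 at 120 min, against 531 and 389 at 0 min (log2 2.64 ± 0.27, limma adjusted p = 0.00033). Its relatives Cebpa (-0.16 ± 0.32) and Cebpb (0.27 ± 0.20) did not pass. The lysosome regulator gene Tfeb had 442 and 484 at 120 min, against 1186 and 1039 at 0 min (log2 -1.26 ± 0.20, limma adjusted p = 0.0033). Families of related factors thus held members that rose, that fell and that did not pass. Hivep3 (2.63 ± 0.32), Nfil3 (1.17 ± 0.18) and the repressor gene Prdm1 (5.07 ± 0.75, 5.90 without 0 min replicate 1 and 4.23 without 0 min replicate 2) rose, and Bhlhe41, with 139 and 235 at 120 min, against 1861 and 2066 at 0 min, fell. Spi1, the gene of the macrophage master factor PU.1, rose (1.06 ± 0.19) but failed without 120 min replicate 1 or 0 min replicate 2 (adjusted p 0.066 to 0.072). Mef2c fell (-0.87 ± 0.17) but failed without 120 min replicate 1 or either 0 min library (adjusted p 0.057 to 0.099).

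In the list of H3.3, its chaperones and the H3K36 and H3K27 enzymes 4 (5 with the replicate block, 3 to 4 without 1 library) of 36 rose and 5 (9 with the replicate block, 3 to 4 without 1 library) fell (median -0.21). The Polycomb chromodomain genes Cbx8 and Cbx2 fell. Cbx8 had 19.98 and 30.3 normalized reads at 120 min, against 266 and 280.2 at 0 min (log2 -3.42 ± 0.37, limma adjusted p = 0.00043). Cbx2 had 33.3 and 83.3 at 120 min, against 332 and 351 at 0 min (log2 -2.67 ± 0.44, -2.02 without 120 min replicate 1 and -3.32 without 120 min replicate 2, limma adjusted p = 0.0046). Both encode subunits that read the H3K27 methyl mark. Cbx7 (-1.35 ± 0.27) also fell but failed without 120 min replicate 2 or either 0 min library (adjusted p 0.070 to 0.089). Of the writers, Ezh2 (-0.19 ± 0.22), Suz12 (0.07 ± 0.15) and Eed (-0.08 ± 0.23) did not pass. Their recruiting partner Jarid2 rose, with 6738 and 4924 at 120 min, against 2161 and 2459 at 0 min (log2 1.32 ± 0.16, limma adjusted p = 0.0010). Kdm6b, the enzyme that removes the mark, had 6439 and 11052 at 120 min, against 532 and 763 at 0 min (log2 3.72 ± 0.39, limma adjusted p = 0.00035). Its relative Kdm6a (0.18 ± 0.18) did not pass. H3f3b, 1 of the 2 genes of H3.3, rose with 34155 and 33056 at 120 min, against 15367 and 13623 at 0 min (log2 1.22 ± 0.15, limma adjusted p = 0.00088). The other, H3f3a, had 3109 and 2438 at 120 min, against 2926 and 2055 at 0 min (0.17 ± 0.26) and did not pass. The H3.3 chaperone gene Daxx rose (1.79 ± 0.30) but failed without 120 min replicate 1 (adjusted p 0.055), and Hira (-0.45 ± 0.23, block adjusted p = 0.013) and Atrx (-0.14 ± 0.13) did not pass.

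Cell cycle genes fell at 10 (22 with the replicate block, 2 to 6 without 1 library) of 54 and rose at 2 (3 with the replicate block, 1 without 1 library) (median -0.35). E2f2, a driver of entry into S phase, had 330.3 and 446 normalized reads at 120 min, against 2090.3 and 2054 at 0 min (log2 -2.43 ± 0.18, limma adjusted p = 4.8e-05). Aspm, a spindle pole gene, had 1779 and 1759.9 at 120 min, against 4472 and 4361 at 0 min (log2 -1.32 ± 0.15, limma adjusted p = 0.00067). Cdkn1a, the gene of the cyclin kinase inhibitor p21, rose with 24586 and 26125 at 120 min, against 5462 and 5661 at 0 min (log2 2.19 ± 0.32, limma adjusted p = 0.0024). Of the other inhibitor genes, Cdkn1b (-1.37 ± 0.33), Cdkn2c (-0.99 ± 0.21) and Cdkn2d (-1.63 ± 0.37) fell. Cdkn1b failed without any 1 of the 4 libraries (adjusted p 0.095 to 0.18). Cdkn2c failed without any 1 of the 4 libraries (adjusted p 0.059 to 0.10), and Cdkn2d failed without 120 min replicate 2 or either 0 min library (adjusted p 0.074 to 0.15). Mki67 (-0.71 ± 0.35, block adjusted p = 0.039), Top2a (-0.16 ± 0.18) and Pcna (-0.03 ± 0.24) did not pass.

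Genes of the BCL2 family and p53 targets rose at 7 (11 with the replicate block, 4 without 1 library) of 32 and fell at 4 (6 with the replicate block, 1 to 3 without 1 library) (median 0.17). Bcl2l1, which encodes the survival protein BCL-XL, had 4813 and 5665 normalized reads at 120 min, against 1079 and 1266 at 0 min (log2 2.16 ± 0.23, limma adjusted p = 0.00038). Mcl1 had 52591 and 53562 at 120 min, against 23283 and 21435 at 0 min (log2 1.25 ± 0.13, limma adjusted p = 0.00039). The death-promoting gene Bcl2l11 (BIM) rose as well, with 10258 and 9383 at 120 min, against 1317 and 1123 at 0 min (log2 3.01 ± 0.25, limma adjusted p = 9.0e-05). Bmf, another death-promoting gene, fell (-2.99 ± 0.56) but failed without 120 min replicate 1 or 0 min replicate 1 (adjusted p 0.080 to 0.085), and Bcl2 fell (-1.15 ± 0.24) but failed without either 120 min library or 0 min replicate 1 (adjusted p 0.051 to 0.12). Survival and death genes thus moved in both directions. Xpc, a DNA repair gene, fell (-1.12 ± 0.18).

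Smaller groups were as follows. In the TGF-beta and Notch list 5 (8 with the replicate block, 0 to 2 without 1 library) of 28 rose and 2 (5 with the replicate block, 1 without 1 library) fell (median -0.05), with Lfng, a modifier of Notch, lower (log2 -2.05 ± 0.32, limma adjusted p = 0.0034). Stress genes rose at 6 (15 with the replicate block, 2 to 4 without 1 library) of 42 and fell at 1 (2 with the replicate block) (median 0.28). There Ppp1r15a, which restores translation after stress, rose (log2 3.55 ± 0.35, limma adjusted p = 0.00025). Herpud1, of the disposal of misfolded proteins, rose (log2 1.82 ± 0.22, limma adjusted p = 0.00076). The stress kinase gene Eif2ak3 fell (log2 -1.26 ± 0.14, limma adjusted p = 0.00057). Of 28 genes of cholesterol efflux and scavenging 2 (4 with the replicate block) rose, of which 1 was the oxidized LDL receptor gene Olr1 with 673 and 928 at 120 min, against 5.44 and 10.4 at 0 min (log2 6.53 ± 1.01, limma adjusted p = 0.0031). The other was Axl, with 244 and 209.6 at 120 min, against 46.8 and 30.1 at 0 min (log2 2.56 ± 0.32, limma adjusted p = 0.0011). The exporter gene Abcg1 fell (-2.20 ± 0.39) but failed without 120 min replicate 1 or 0 min replicate 2 (adjusted p 0.059 to 0.064). In the same list Abca1 (1.28 ± 0.40, block adjusted p = 0.0034) did not pass, and 3 (5 with the replicate block) genes fell (median -0.11). The shares of that list were 7.14% higher and 10.7% lower, against 5.08% and 5.52% of all genes tested.

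Zinc finger genes named Zfp fell at 39 (97 with the replicate block, 11 to 18 without 1 library) of 322 and rose at 9 (23 with the replicate block, 4 to 6 without 1 library) (median -0.33). Zfp324 had 109 and 109 normalized reads at 120 min, against 659.8 and 628 at 0 min (log2 -2.55 ± 0.18, limma adjusted p = 3.2e-05). Zfp710 had 1412 and 1341 at 120 min, against 5358 and 5184 at 0 min (log2 -1.94 ± 0.16, limma adjusted p = 9.1e-05). Zfp263 (1.37 ± 0.14) and Zfp811 (4.39 ± 0.48) were among those that rose. Solute carrier genes rose at 16 (27 with the replicate block) of 262 and fell at 25 (52 with the replicate block) (median -0.08). These were 6.11% and 9.54% of the list, near the 5.08% and 5.52% of all genes tested. Slc15a3, a carrier of bacterial peptides, rose (log2 2.37 ± 0.15, limma adjusted p = 2.1e-05), as did the bicarbonate carrier gene Slc4a7 (log2 2.28 ± 0.21, limma adjusted p = 0.00018) and the iron carrier gene Slc11a2 (log2 1.70 ± 0.18, limma adjusted p = 0.00032). Slc16a12, a creatine carrier gene, fell (log2 -1.87 ± 0.18, limma adjusted p = 0.00021).

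Among groups of housekeeping and metabolic genes, none of 59 ribosomal protein genes was called (median 0.30, and 19 rose with the replicate block), nor any of 42 oxidative phosphorylation genes (median 0.18, and 2 rose with the block) or of 15 regulatory RNAs (median 0.28, and 2 with the block). Proteasome genes rose at 5 (20 with the replicate block, 0 to 1 without 1 library) of 34 (median 0.36), including Psmd8 (0.79 ± 0.13), which failed without 120 min replicate 1 or 0 min replicate 2 (adjusted p 0.051 to 0.052). Of 35 glycolysis and hypoxia genes 2 (4 with the replicate block, 0 to 1 without 1 library) rose and 1 (3 with the replicate block, 0 without 1 library) fell, and Slc2a1, the glucose transporter gene, was higher (1.71 ± 0.45) but failed without any 1 of the 4 libraries (adjusted p 0.085 to 0.24). Ldha (0.20 ± 0.26) and Hk2 (0.16 ± 0.17) did not pass. Sterol and fatty acid genes counted 1 (4 with the replicate block, 0 without 1 library) higher and 3 (5 with the replicate block, 0 to 2 without 1 library) lower of 32, lysosomal genes 2 (0 without 1 library) and 3 (4 with the replicate block, 0 to 1 without 1 library) of 35. Antigen presentation genes counted 3 (11 with the replicate block, 0 to 1 without 1 library) higher and 0 lower of 27, complement and Fc receptor genes 0 higher and 1 (3 with the replicate block, 0 to 2 without 1 library) lower of 16. The glycolysis list held 5.71% higher and 2.86% lower, and the lysosomal list 5.71% and 8.57%. Over all genes tested these shares were 5.08% and 5.52%. Of the customary reference genes, Gapdh (0.17 ± 0.21), Tbp (0.03 ± 0.15) and Hprt (0.16 ± 0.11) did not pass, whereas Actb rose, with 228178 and 196187 at 120 min, against 90364 and 95391 at 0 min (log2 1.19 ± 0.26, limma adjusted p = 0.017). Actb failed without any 1 of the 4 libraries (adjusted p 0.064 to 0.13).

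RAW264.7 libraries at 60 min of LPS were set beside those at 120 min without a test, since both times are compared with the same 0 min libraries. The 60 min libraries were shallower than those at 120 and 0 min, with 23.1 M reads in replicate 1 and 13.1 M in replicate 2. Differences at 60 min are log2 differences of group means. Egr1 had 45903 and 53618 normalized reads at 60 min, a difference of 4.66, and 8019 and 5688 at 120 min, against 1600.4 and 2399 at 0 min (1.78 ± 0.31). Btg2, an antiproliferative gene, differed by 4.98 at 60 min and 2.01 at 120 min, Nr4a1 by 4.69 and 0.33, Fosb by 6.75 and 2.79, and Zfp36 by 4.58 and 3.08. These 5 genes were highest at 60 min in both of its libraries. Tnfaip3 differed by 5.50 at 60 min and 5.30 at 120 min, and Dusp1 by 5.53 and 5.84. Another group stood near its 0 min level at 60 min: Jak2 differed by -0.04 and then 2.31, Cebpd by 0.02 and 2.64, Tnfrsf1b by -0.38 and 2.49, Hcar2 by 0.21 and 4.02, and Bcl2l1 by -0.48 and 2.16. The costimulatory gene Cd80 had 52.0 and 55.4 at 60 min, and 328 and 332 at 120 min, against 68.6 and 81.1 at 0 min. Decreases had their own timing, with Txnip at -3.03 and -2.73, Tgfbr2 at -0.29 and -1.79, and Fli1 at 0.14 and -2.07. Egr1 failed without 120 min replicate 1 or 0 min replicate 1 (adjusted p 0.067 to 0.068), and Btg2 failed without any 1 of the 4 libraries (adjusted p 0.080 to 0.13).

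**Figure D4:**
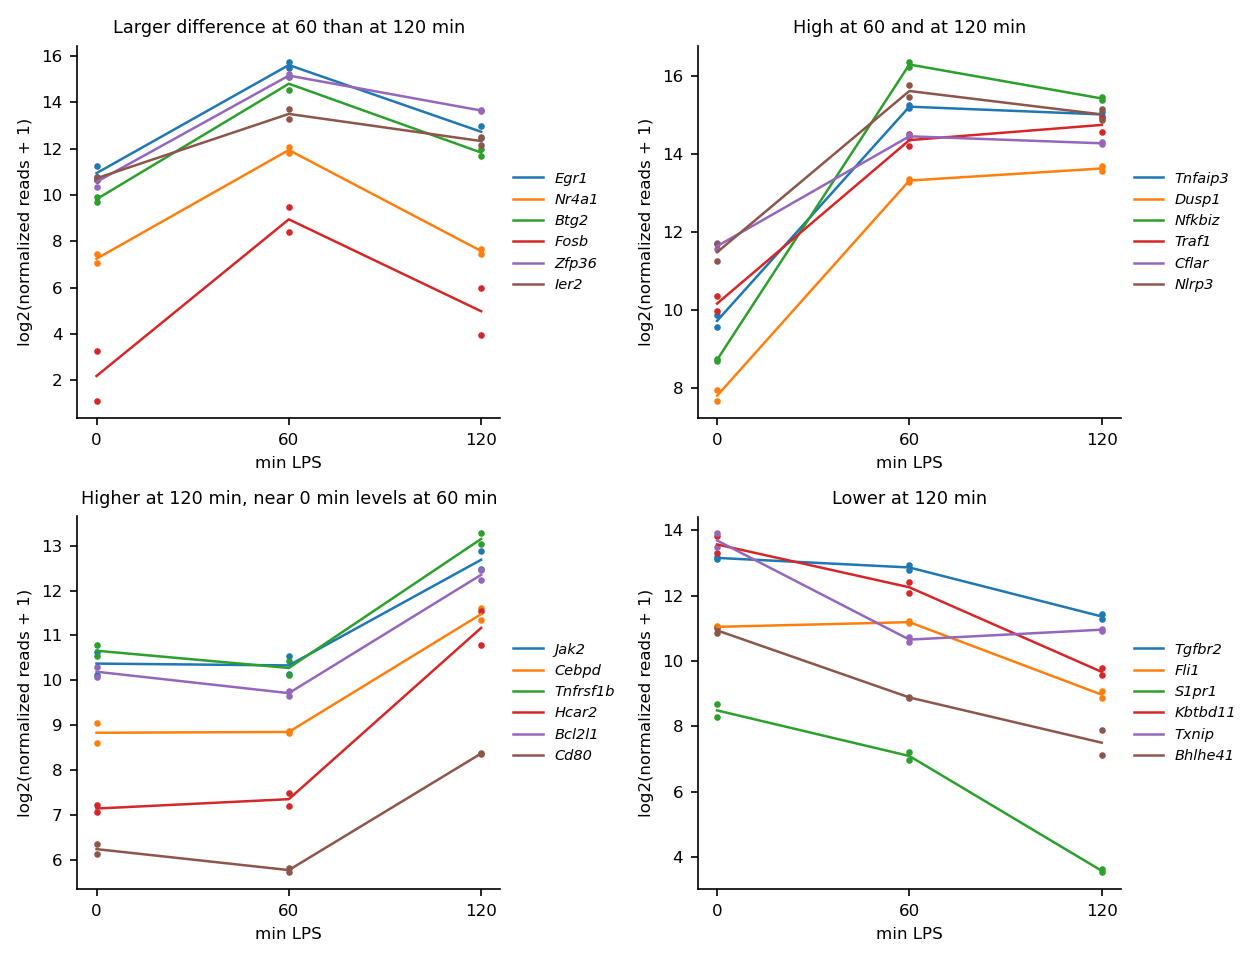
Log2(normalized reads + 1) of 24 genes in RAW264.7 at 0, 60 and 120 min of LPS, with a point per library (2 per time) and lines through the group means. Egr1 and its panel peak at 60 min, Jak2 and its panel stand near their 0 min level at 60 min and higher at 120 min, and Txnip is already low at 60 min.

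Of the targeted genes, H3f3a had 2055 to 3109 normalized reads over the RAW264.7 libraries, 182 to 236 in line 264 and 37.5 to 76.2 in line 3205. H3f3b had 13623 to 34155 in RAW264.7, 5642 to 17765 in line 264 and 7177 to 13284 in line 3205. The response at 120 min differed between RAW264.7 and line 264 at 4 genes (0.0229% of those tested) and between RAW264.7 and line 3205 at 1 gene (0.00573%), when the difference itself was tested in the same limma fit. Dusp1 had 13141 and 12179 at 120 min, against 243 and 200.3 at 0 min in RAW264.7. It had 1037 and 763 at 120 min, against 240.3 and 209 at 0 min, in line 264. In line 3205 it had 3629 and 2948 at 120 min, against 1043 and 752 at 0 min. Its response was larger in RAW264.7 by 3.85 ± 0.30 than in line 264 (limma adjusted p = 0.0036) and by 3.95 ± 0.30 than in line 3205 (limma adjusted p = 0.0028). The unstimulated level of Dusp1 was alike in RAW264.7 and line 264, and the 120 min values did not overlap. Sgms2, a sphingomyelin synthase gene, had 119 and 119.9 at 120 min, against 1.09 and 0 at 0 min in RAW264.7. In line 264 Sgms2 had 0.98 and 0 at 120 min, against 1.82 and 3.42 at 0 min (difference 7.70 ± 0.80, limma adjusted p = 0.016). Rasgef1b, a Ras family exchange factor gene, had 13741 and 9171 at 120 min, against 1203 and 1163 at 0 min in RAW264.7. In line 264 Rasgef1b had 5778 and 5938 at 120 min, against 5150.0 and 6546 at 0 min (difference 3.23 ± 0.32, limma adjusted p = 0.016). Iqsec1, an exchange factor of ARF6, had 459 and 535 at 120 min, against 1787 and 2178 at 0 min in RAW264.7. In line 264 Iqsec1 had 4314 and 4004 at 120 min, against 3894 and 4347 at 0 min (difference -2.00 ± 0.24, limma adjusted p = 0.035). So Rasgef1b rose and Iqsec1 fell in RAW264.7, while in line 264 both stood at similar levels at 120 and 0 min, above the unstimulated RAW264.7 values.

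With the replicate block all 5 of these differences passed, and the counts of differences were 45 from line 264 and 119 from line 3205. Other fits lost 3 of the 5. Sgms2 failed in edgeR (adjusted p 0.33), in edgeR with the replicate block (0.057), with a pseudocount of 0.5 (0.064) and in limma on the compared groups alone (0.17). Iqsec1 failed in edgeR (0.061), in limma without the intensity trend (0.14), on the compared groups alone (0.16) and against a fold of 1.5 (0.25). Rasgef1b failed without the trend (0.069) and on the compared groups alone (0.105). Both Dusp1 differences passed in each of these fits. The Dusp1 difference from line 264 failed without RAW264.7 120 min replicate 1 (adjusted p 0.058), and that from line 3205 kept its call without any 1 of 8 libraries. Iqsec1 (adjusted p 0.082 to 0.32) and Sgms2 (0.054 to 0.15) failed without any 1 of 8 libraries. Rasgef1b failed (0.051 to 0.12) without any 1 of them except RAW264.7 120 min replicate 2. A difference that did not pass is not shown to be absent at this depth and with 2 libraries per group.

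**Figure D5:**
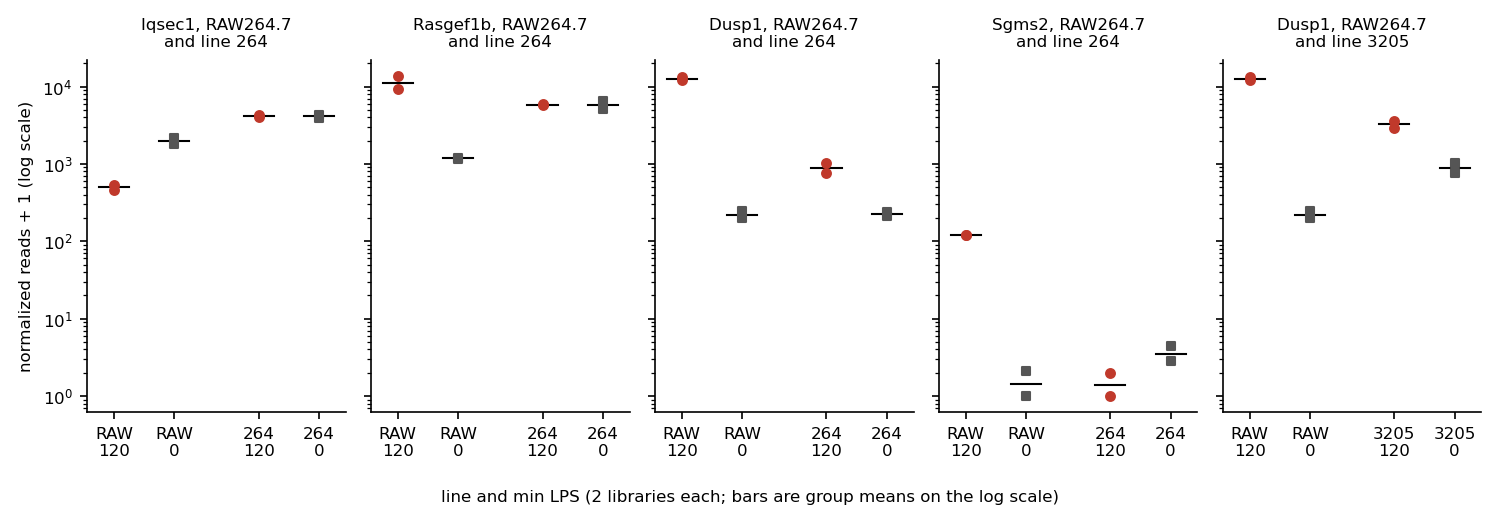
Normalized reads plus 1 (log axis, shared by the panels) of the genes whose response differed between RAW264.7 and an edited line, at 120 min (red circles) left of 0 min (grey squares), 2 libraries per group with bars at the group means. Dusp1 reaches 12179 to 13141 normalized reads in RAW264.7 at 120 min and stays at or below 3629 in both edited lines.

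The authors' deposited table of primary bone marrow macrophages lists 189 genes as higher with LPS. Of these, 187 were among the genes listed for RAW264.7, and 180 were tested here. In RAW264.7 at 120 min 129 rose (148 with the replicate block) and 3 fell, with a median of 2.61. The 3 that fell, named after their values were seen, were Osgin1, Klhl25 (-1.34 ± 0.21) and Slco4a1 (-2.31 ± 0.31). Of the 6 tested genes listed as lower in the authors' deposited table, 1 fell, Zkscan14 (-1.78 ± 0.42), a gene named after its values were seen, and it failed without any 1 of the 4 libraries (adjusted p 0.053 to 0.17). Apart from the number 120 in the name of that list, how long those primary cells were stimulated is not stated. No test compared both cell types.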

How the data were processed

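RNA of RAW264.7 cells and of 2 lines derived from them was sequenced, and the values used here are the authors' deposited tables. Per the submitters' processing notes, Trim Galore 0.5.0, STAR 2.4.2, featureCounts of Subread 1.4.6 and DESeq2 under R 3.4.0 were used with build mm10, and whether counting used strand is not given there. The signal the authors deposited is each gene's reads over a size factor of the library, and 100% of the values came back as whole reads within a tolerance of 0.1 read. The tables for 60 and 120 min share 1 scale, although the plan had assumed that they were normalized apart. The authors' deposited log2 fold changes and p-values for RAW264.7 were looked at and made no call here. The deposited log2 fold changes of primary macrophages served only to pick the gene list named in the text, and 32 further columns of per-sample values were not used.

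Under R 4.3.3, limma 3.58.1 (trend on intensity) took log2(normalized reads + 1) of 12 libraries in 6 groups, and all groups share 1 estimate of the spread. The fit was tested on simulated data with known changes. The response differences, RAW264.7 minus line 264 and RAW264.7 minus line 3205, came from the same fit. Whole reads were also tested with edgeR 4.0.16 and DESeq2 1.42.0, and every other setting is given in the closing section. Replicate numbers come from the labels. The differences between replicates 1 and 2 correlated over genes in all 15 pairs of groups (r 0.224 to 0.556). Between 120 and 0 min of RAW264.7 r was 0.308. So the numbers carry a pairing, which the main fit leaves out. With a replicate block 1974 genes rose and 2163 fell, against 886 and 963 in the main fit. The fit with the block is given where it changes a call or a count. Depth of the 12 libraries was 26.5 M to 51.0 M reads.

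The genes, the gene lists and the comparisons were chosen with earlier results of these data known. Genes were named by rule: the 20 largest increases and the 20 largest decreases, where the higher group averaged 50 normalized reads or more and ranges stayed apart, up to 6 members of each list by p and members whose role is described, the 10 genes without a 0 min read and with most reads at 120 min, the largest response differences, and a fixed panel. Levels are not corrected for length and are compared between libraries. Promoters came from RefSeq (GRCm38.p6) by symbol. Some list members are counted in their lists and are not reported here by name.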

Additional observations from a re-analysis of the deposited data

Results flagged for a closer look

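At 4 genes the response to LPS at 120 min differed between RAW264.7 and an edited line by a test of the difference itself (limma, log2 scale, n = 2 libraries per group). Dusp1 responded more strongly in RAW264.7 by 3.85 ± 0.30 than in line 264 and by 3.95 ± 0.30 than in line 3205. Sgms2 responded more strongly in RAW264.7 than in line 264 by 7.70 ± 0.80, and Rasgef1b by 3.23 ± 0.32. Iqsec1 had a response that was -2.00 ± 0.24 relative to that of line 264. In edgeR Sgms2 (adjusted p 0.33) and Iqsec1 (0.061) failed. Rasgef1b failed in limma without the intensity trend (adjusted p 0.069) and in limma on the compared groups alone (0.105). Both Dusp1 differences passed in these fits. No explanation was tested for any of the 4 genes.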

How the results depend on the processing

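All 1849 called genes were called with the replicate block, which gave 1974 higher and 2163 lower. Fitting only the 4 RAW264.7 libraries gave 493 and 441, testing against a fold of 1.5 gave 298 and 174, and edgeR with the replicate block gave 1679 and 2216. Without 1 library the counts ran from 353 to 485 higher and from 316 to 496 lower. Limma without the trend (674 and 736), without the filter (860 and 884), with a pseudocount of 0.5 (881 and 966) or 5 (910 and 978) and with TMM scaling (817 and 1045), edgeR (744 and 965) and DESeq2 (1249 and 1354) stayed within 1.5 times.

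Differences from line 264 numbered 14 with a pseudocount of 5, 45 with the replicate block, 1 with only the groups compared, 2 by edgeR, 42 by edgeR with the block, 53 by DESeq2 and 0 to 2 without 1 library. Those from line 3205 numbered 6 without the trend, 5 without the filter, 8 with a pseudocount of 5, 119 with the block, 2 with only the groups compared, 3 with TMM, 4 by edgeR, 135 by edgeR with the block, 94 by DESeq2 and 1 to 4 without 1 library. The cause was not tested.

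Of 288 genes named, 223 were called, and 183 of those kept the call without each of the 4 libraries. With a library left out, the sign of these uncalled genes changed: Alox5 (-0.52 to 0.26), Arg1 (-1.17 to 0.41), Casp1 (-0.15 to 0.074), Cebpa (-0.58 to 0.27), Eed (-0.21 to 0.061), H3f3a (-0.088 to 0.42), Hk2 (-0.022 to 0.35), Hmox1 (-0.24 to 0.49), Il18 (-0.22 to 0.36), Lck (-0.34 to 0.89), Ly96 (-0.011 to 0.18), Lyz2 (-0.20 to 0.051), Pcna (-0.12 to 0.061), Ptgs1 (-1.69 to 0.44), Rps6ka4 (-0.086 to 0.062), Tbp (-0.036 to 0.10) and Zfp36l1 (-0.16 to 0.13). Of the called genes named, 55 lost their call in limma on only the 4 RAW264.7 libraries. Against a fold of 1.5, 39 of them lost it. Those losses are not marked gene by gene in the text. Depth was alike in the 4 libraries, and 2 libraries per group limit the precision.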

Other observations

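Vmn2r90, of the vomeronasal pheromone receptor family, was among the 20 largest increases. Vmn2r90 had 70.6 and 352 normalized reads at 120 min, against 0 and 1.16 at 0 min (log2 6.76 ± 1.01, 7.91 without 120 min replicate 1 and 5.61 without 120 min replicate 2, limma adjusted p = 0.0026). The 120 min values differed widely between the replicates, and both lay above the 0 min values. The call held without any 1 of the 4 libraries.

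Spp1, which encodes the secreted phosphoprotein osteopontin, had the most normalized reads among the genes that rose, without a correction for transcript length. Spp1 had 407016 and 287615 normalized reads at 120 min, against 125353 and 83883 at 0 min (log2 1.74 ± 0.25, limma adjusted p = 0.0021). Sdc4, a heparan sulfate carrier of the cell surface, had 92700.4 and 89491 at 120 min, against 6448 and 6323 at 0 min (log2 3.83 ± 0.24, limma adjusted p = 2.0e-05). Both were abundant already at 0 min, with no overlap between the groups.

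Several cell surface and signalling genes outside the groups described above fell. Mtss1, a membrane-bending protein gene, had 1004 and 862 normalized reads at 120 min, against 4171 and 3574 at 0 min (log2 -2.05 ± 0.16, limma adjusted p = 6.2e-05), and the Wnt receptor gene Fzd7 had 111 and 143 at 120 min, against 665 and 723 at 0 min (log2 -2.46 ± 0.19, limma adjusted p = 6.4e-05). Nuak2, an AMPK-related kinase gene, had 139.8 and 130.0 at 120 min, against 725 and 772 at 0 min (log2 -2.46 ± 0.17, limma adjusted p = 3.2e-05). Orc5, of the origin recognition complex, had 948 and 1006 at 120 min, against 2428 and 2566 at 0 min (log2 -1.35 ± 0.11, limma adjusted p = 8.0e-05). In all 4 the 120 min values lay below the 0 min values. These genes were named after their values were seen.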
